A study of Mus musculus with 5 samples.

Results

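Photoreceptor transcripts were examined in mouse brain RNA eluted from MA-Brent-1, a protein to which the RNA had been bound in vitro. The genes were Crx, Nrl, Gnat1, Pde6b, Pde6g, Sag, Arr3, Rcvrn and Rp1, which are hardly expressed in brain outside the eye and the pineal gland. Every probe set that the array annotation assigned to 1 of these 9 genes alone was taken, with no filter on signal, which gave 14 of the 45101 probe sets. The annotation named 18193 genes through a single symbol. The genes were picked because earlier results of these arrays showed them low in bound RNA relative to input. Their difference between bound and input RNA is therefore described here without a test.

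The study used 5 Affymetrix arrays. On 2 arrays the RNA had been eluted from deiminated MA-Brent-1, on 2 from the non-deiminated protein, and 1 array held the initial brain RNA that went through no binding step, called input here. MA-Brent-1 is related to REF/Aly, a family of mRNA export adaptors, and deimination converts arginine residues of a protein to citrulline. In each bound group 1 title names the protein MA-Brent-1 and the other REFP2, and 1 non-deiminated title marks a biological repeat. No strain, age or number of animals is given in the sources used here, so the p-values cover just the spread among these samples, and that spread may be technical.

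Photoreceptors turn light into a fall in cyclic GMP. Light-activated opsin switches on transducin, which releases the cyclic GMP phosphodiesterase from its inhibitory subunits, and the phosphodiesterase then lowers cyclic GMP so that cation channels close. Arrestins and recoverin act on the opsin end of the cascade, and the transcription factors Crx and Nrl switch on the genes for it. Several of these genes are also active in the pineal gland, whose cells share ancestry with photoreceptors.

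The deposited values are MAS5 signal intensities on a linear scale, already scaled to a common trimmed mean of 150 on every array. The number of arrays limits the precision. Over all 45037 non-control probe sets the median signal was 29.8 and 37.5 in the deiminated samples, 30.5 and 41.4 in the non-deiminated samples, and 102 in the input. Hybridisation controls, which are bacterial and phage transcripts added to each sample, averaged 10.59 and 12.60 log2 in the deiminated samples, 10.08 and 13.04 log2 in the non-deiminated samples, and 17.04 log2 in the input. Markers of the labelled tissue were bright. The median probe set of 11 neuronal genes lay at percentiles 92.0 and 93.8 of the deiminated samples, 89.3 and 92.6 of the non-deiminated samples, and 87.8 of the input. Oligodendrocyte markers lay at 93.7 and 94.8, at 92.7 and 94.4, and at 83.5 on the same arrays. Astrocyte markers were lower, at 84.0 and 80.1, at 82.0 and 82.2, and at 79.7. Microglial markers were lower still, at 77.2 and 73.2, at 78.9 and 77.2, and at 68.1. Of 6 listed pineal genes, 4 had probe sets, and their 5 probe sets had median signals of 15.2 and 5.43 in the deiminated samples, 19.7 and 24.4 in the non-deiminated samples, and 103 in the input.

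The photoreceptor probe sets were mostly dim on the bound arrays and were spread widely in the input, from percentile 11.6 to 89.8. Their median signal was 9.44 and 13.2 in the deiminated samples, 4.51 and 22.9 in the non-deiminated samples, and 116 in the input. The number above the array's own median was 2 and 3 of 14 in the deiminated samples, 3 and 4 in the non-deiminated samples, and 7 in the input. Of the 14, 11 were lower on all 4 bound arrays than in the input, where the same held for 54.7% of all non-control probe sets. None was higher on all 4, against 25.2% of all probe sets, but under cyclic loess 3 of 14 were (36.9% of all) and under hybridisation control scaling 9 of 14 (81.8% of all). A difference of at least 2-fold on every bound array was found for 9 of 14, against 37.1% of all probe sets. The median log2 difference of bound minus input, on the log2(signal + 4.18) scale, was -2.21 over the 14 and -0.92 over all probe sets. Since the members were chosen on this contrast, nothing is read from these counts. The hybridisation control level moved with the contrast, and its part in it was not tested. Nor was it tested whether the signals of dim probe sets on the single input array, where these controls were brightest, follow RNA abundance.

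**Figure D1:**
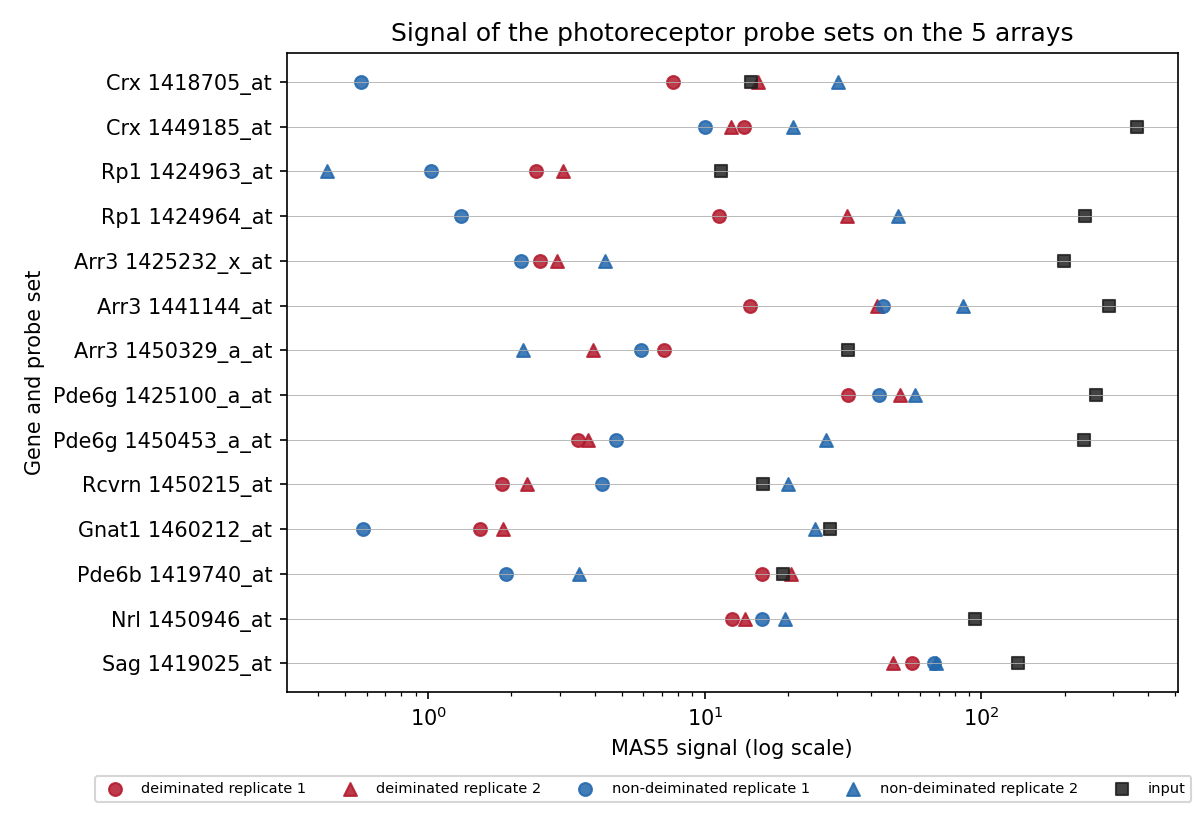
MAS5 signal (log axis) of each of the 14 photoreceptor probe sets on the 5 arrays, 1 point per array, with deiminated arrays in red, non-deiminated arrays in blue and the input array as a black square. The input square is the rightmost point in 11 of the 14 lines. For Gnat1 and for Crx 1418705_at the non-deiminated points lie far apart, at 0.583 and 25.0 and at 0.573 and 30.2.

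Among the transcription factors, Crx encodes the cone-rod homeobox factor that activates rod and cone genes. Its probe set 1449185_at read 13.9 and 12.4 in the deiminated samples, 9.99 and 20.8 in the non-deiminated samples, and 365 in the input. The bound arrays lay close together and far under the input array, with a log2 difference of -4.41 for deiminated and -4.29 for non-deiminated RNA. The other Crx probe set, 1418705_at, read 7.68 and 15.6 in the deiminated samples, 0.573 and 30.2 in the non-deiminated samples, and 14.7 in the input. Here the input value lay inside the bound range, and the differences were -0.30 and -0.56. The large difference for Crx therefore rests on 1 of its 2 probe sets. Nrl, the leucine zipper factor that specifies rods, read 12.5 and 14.0 in the deiminated samples, 16.0 and 19.6 in the non-deiminated samples, and 95.03 in the input. All bound arrays were below the input array, and the 4 log2 values had an SD of 0.22.

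The promoters of Crx, Arr3 and Sag are shown because Crx, itself a member, binds DNA at a TAATC core and is known to act on photoreceptor genes. RefSeq promoter windows on GRCm38.p6 were at hand for 5 of the 9 genes, and the 250 bases before the annotated start are given 5′ to 3′ on the gene's strand, with TAATC and its reverse complement GATTA in capitals.
Crx, chr7:15879956-15880205, minus strand: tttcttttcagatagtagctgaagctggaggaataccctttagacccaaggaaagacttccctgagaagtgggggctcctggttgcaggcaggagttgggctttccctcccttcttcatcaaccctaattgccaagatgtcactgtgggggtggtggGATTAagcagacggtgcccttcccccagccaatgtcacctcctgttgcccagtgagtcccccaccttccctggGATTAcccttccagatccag
Arr3, chrX:100605247-100605496, plus strand: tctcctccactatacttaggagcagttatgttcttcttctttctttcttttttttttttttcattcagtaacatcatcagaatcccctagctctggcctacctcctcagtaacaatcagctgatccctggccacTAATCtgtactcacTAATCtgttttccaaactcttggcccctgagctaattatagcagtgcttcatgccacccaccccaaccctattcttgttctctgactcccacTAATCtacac
Sag, chr1:87803430-87803679, plus strand: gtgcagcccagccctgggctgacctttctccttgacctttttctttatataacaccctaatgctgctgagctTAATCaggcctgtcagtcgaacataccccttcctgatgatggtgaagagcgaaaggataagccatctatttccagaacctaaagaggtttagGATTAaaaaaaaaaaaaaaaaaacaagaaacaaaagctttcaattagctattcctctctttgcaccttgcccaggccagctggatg
The core TAATC occurred on either strand in 4 of the 5 member windows, with Nrl the window that lacked it, and in 19.8% of all 32851 windows. The printed windows held the most matches of the 5, with 2 for Crx, 3 for Arr3 and 2 for Sag. Pde6b, whose window is not printed, held 1. The longer TAATCC, which contains the core, occurred in 2 of 5, Crx and Sag, and in 6.25% of all windows. Among 31 windows of other listed photoreceptor genes, 17 held TAATC and 10 held TAATCC. These matches describe the letters of the windows only, and the arrays measured RNA, not the activity of these promoters.

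Of the cascade enzymes, Gnat1 encodes the alpha subunit of rod transducin. It read 1.54 and 1.86 in the deiminated samples, 0.583 and 25.0 in the non-deiminated samples, and 28.3 in the input. The second non-deiminated array nearly reached the input level while the other bound arrays lay far below. Pde6g encodes the inhibitory gamma subunit of the rod phosphodiesterase. Its probe set 1425100_a_at read 33.0 and 50.7 in the deiminated samples, 42.7 and 57.4 in the non-deiminated samples, and 260 in the input, so that the bound arrays overlapped each other and all lay below input. Its probe set 1450453_a_at read 3.47 and 3.78 in the deiminated samples, 4.76 and 27.3 in the non-deiminated samples, and 234 in the input. Both Pde6g probe sets gave negative differences, of -2.55 and -4.93 for deiminated and of -2.30 and -3.83 for non-deiminated RNA. Pde6b encodes a catalytic subunit of the same enzyme. It read 16.0 and 20.4 in the deiminated samples, 1.91 and 3.52 in the non-deiminated samples, and 19.1 in the input. The deiminated arrays lay on either side of the input and the non-deiminated arrays below it.

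The arrestins quench activated opsin, Sag in rods and Arr3 in cones. Sag read 56.0 and 47.7 in the deiminated samples, 67.3 and 68.6 in the non-deiminated samples, and 136 in the input. All 4 bound arrays were lower than input in signal, with differences of -1.33 for deiminated and -0.96 for non-deiminated RNA. By position within the array Sag was below input in the second deiminated sample and above it in the other bound samples. Its percentiles were 62.2 and 55.4 of the deiminated samples, 64.9 and 61.9 of the non-deiminated samples, and 57.0 of the input. Thus outside the second deiminated sample the direction for Sag depended on whether signal or rank was compared.

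Arr3 had 3 probe sets. Probe set 1425232_x_at, whose suffix marks probes that may also match other transcripts, read 2.53 and 2.91 in the deiminated samples, 2.16 and 4.36 in the non-deiminated samples, and 199 in the input. Its log2 difference of -4.83 was the lowest of the 14, and the bound values had an SD of 0.19. Probe set 1441144_at read 14.6 and 42.0 in the deiminated samples, 43.9 and 85.8 in the non-deiminated samples, and 289 in the input. Probe set 1450329_a_at read 7.14 and 3.95 in the deiminated samples, 5.86 and 2.20 in the non-deiminated samples, and 32.8 in the input. The 3 probe sets all read lower on every bound array than in the input.

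Rcvrn encodes recoverin, a calcium-binding regulator of the light response. It read 1.86 and 2.27 in the deiminated samples, 4.25 and 20.0 in the non-deiminated samples, and 16.2 in the input. The second non-deiminated array was above input and the other 3 bound arrays were below it. Rp1 encodes a microtubule-associated protein of the outer segment axoneme. Its probe set 1424964_at read 11.2 and 32.7 in the deiminated samples, 1.32 and 49.9 in the non-deiminated samples, and 237 in the input. The non-deiminated arrays enclosed both deiminated values. Its probe set 1424963_at read 2.45 and 3.07 in the deiminated samples, 1.02 and 0.432 in the non-deiminated samples, and 11.4 in the input, and was below input on every bound array.

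The position of each probe set among all non-control probe sets of its array, which does not depend on scaling, gave a smaller count. The percentile was lower on all 4 bound arrays than in the input for 8 of 14 probe sets, against 39.7% of all probe sets. The median percentile of the members was 27.1 and 28.4 in the deiminated samples, 18.1 and 35.5 in the non-deiminated samples, and 52.7 in the input. The highest percentile of a member on a bound array was 66.7, for Arr3 1441144_at in the second non-deiminated sample. In the input the members ran from percentile 11.6, for Rp1 1424963_at, to 89.8, for Crx 1449185_at. The bound-minus-input median depended on the scaling. Under quantile normalisation it was -1.003 over the members, against -0.02 for all probe sets, and under cyclic loess -0.47, against -0.14. Under median centring it was -0.75, against 0.54 for all. Under scaling of the arrays to the hybridisation controls the sign turned for 13 of 14 members, with a median of 1.52, against 2.99 for all.

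**Figure D2:**
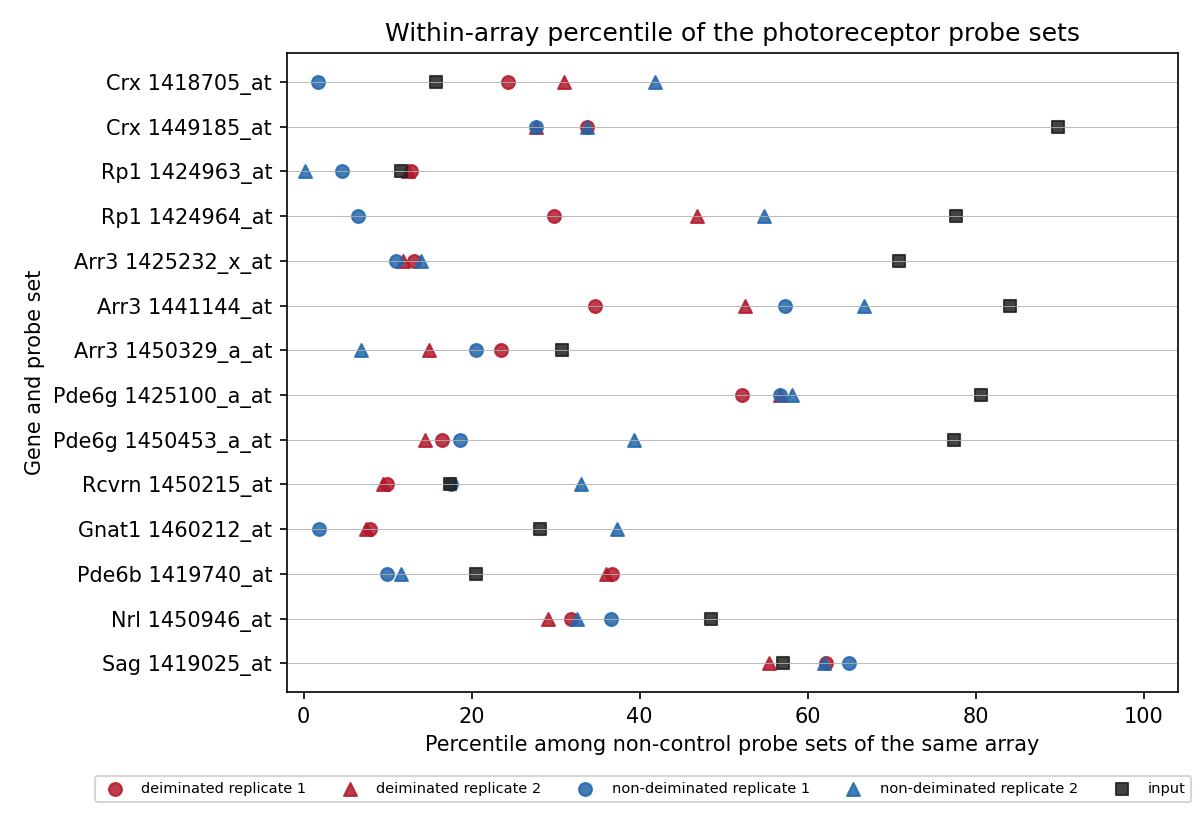
Percentile of each photoreceptor probe set among the 45037 non-control probe sets of the same array, 1 point per array, with deiminated arrays in red, non-deiminated arrays in blue and the input array as a black square. The input square is the rightmost point in 8 of the 14 lines, while for Sag it lies at 57.0 among bound points between 55.4 and 64.9.

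Whether deimination changes RNA binding is asked by setting deiminated against non-deiminated samples, and this comparison played no part in choosing the members. No photoreceptor probe set passed the test. With limma fitted on all 45037 non-control probe sets and Benjamini-Hochberg adjusted p under 0.05 as the threshold, 0 of 14 were called, as were 0% of all probe sets, and each member had adjusted p = 0.9999. At an unadjusted p under 0.05 there were 1 of the 14 and 923 of all probe sets. The median log2 difference of deiminated minus non-deiminated was -0.18 over the 14, with 5 positive and 9 negative, and -0.03 over all probe sets. The 14 standard errors ran from 0.38 to 1.05. The 95% interval lay within 4-fold in either direction for 6 of 14 and within 2-fold for 0, so differences of about that size could not be resolved for these probe sets. A p that misses the threshold does not show that the groups were alike.

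Both deiminated arrays read below both non-deiminated arrays for 5 of 14 probe sets, against 14.7% of all probe sets. These were Sag, Nrl, Rcvrn, Arr3 1441144_at and Pde6g 1450453_a_at. Rcvrn had a log2 difference of -1.19 ± 0.64 (SE, 95% interval -2.58 to 0.20, n = 2 and 2 arrays) in the limma fit. Arr3 1441144_at had -1.16 ± 0.64 (-2.54 to 0.22) and Pde6g 1450453_a_at -1.10 ± 0.88 (-3.01 to 0.80). The other probe sets of both genes had overlapping groups. They gave -0.09 ± 0.67 for Arr3 1425232_x_at, 0.26 ± 0.61 for Arr3 1450329_a_at and -0.25 ± 0.55 for Pde6g 1425100_a_at. Nrl had -0.33 ± 0.81 and Sag -0.37 ± 0.51. Both deiminated arrays read above both non-deiminated arrays for 2 of 14, against 11.6% of all probe sets. These were Pde6b, with 1.70 ± 0.67 (0.24 to 3.17), and Rp1 1424963_at, with 0.50 ± 0.38 (-0.32 to 1.32). Pde6b was the member with the unadjusted limma p under 0.05, and its adjusted p ran from 0.542 to 1.00 over the alternatives. The other Rp1 probe set, 1424964_at, had overlapping groups and 0.47 ± 1.05. Thus Pde6b had a positive difference and both probe sets of Pde6g, the other phosphodiesterase subunit, had negative ones. That of Pde6g 1425100_a_at turned to 0.032 without the first deiminated array. The difference between the 2 subunits was not tested.

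**Figure D3:**
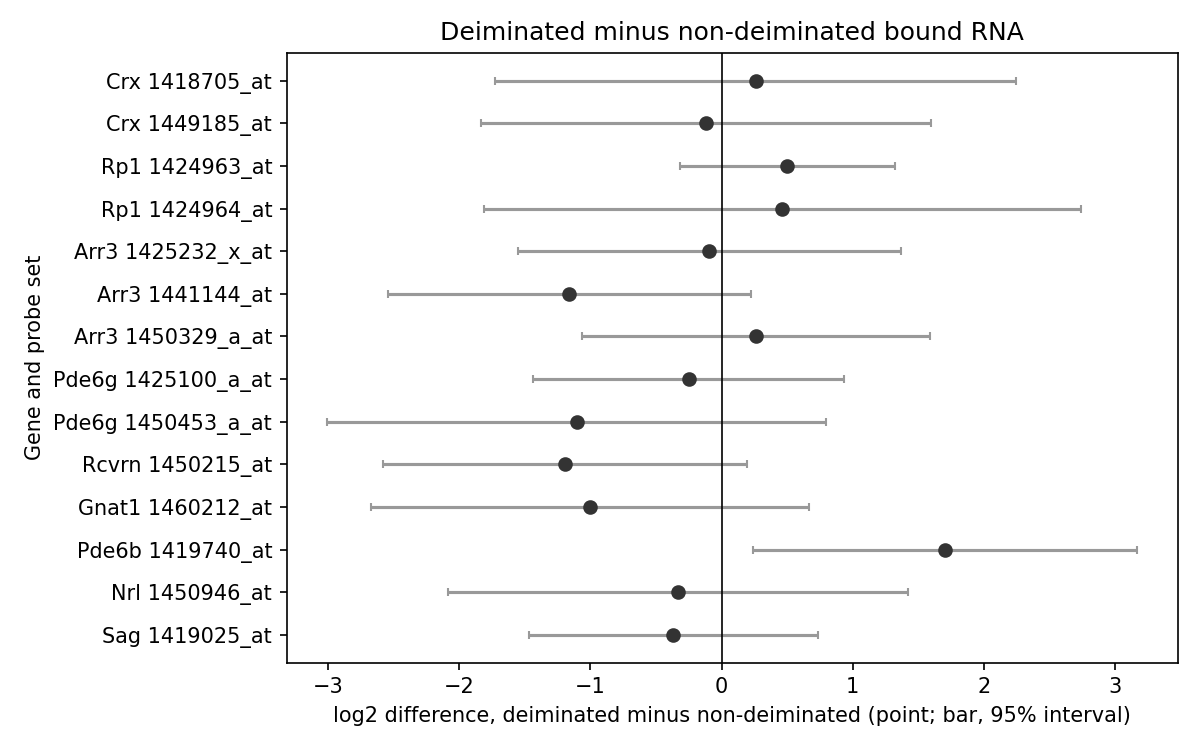
Log2 difference of deiminated minus non-deiminated for each photoreceptor probe set (point) with its 95% interval from limma (bar). The interval of Pde6b, from 0.24 to 3.17, is the single one that leaves out 0, and Pde6b was not called after adjustment.

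The 2 samples of a bound group were also set against each other. The second non-deiminated array read above the first for 12 of 14 members, with a median log2 difference of 0.62, against 59.6% of all probe sets and a median of 0.21. The second deiminated array read above the first for 11 of 14, with a median of 0.11, against 57.9% of all and a median of 0.13. In each group the array with the higher member signals was also the one with the higher hybridisation controls, 12.60 and 13.04 log2 against 10.59 and 10.08, and the part of that level in these differences was not tested. The gap between the non-deiminated samples was wide for Crx 1418705_at (0.573 and 30.2), Gnat1 (0.583 and 25.0) and Rp1 1424964_at (1.32 and 49.9).

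Of 42 further photoreceptor genes listed, 35 had a probe set of their own, 49 in all, and 7 were not analysed here. In bound against input RNA 29 of the 49, in 23 genes, were past the limma threshold with lower signal in bound RNA, and 1 with higher signal. Over all probe sets the shares were 36.2% lower and 15.6% higher. The input has 1 array, with no spread of its own, and was assumed to vary like the bound ones, so these counts are given as a description and support no difference. The 49 probe sets had a median log2 difference of -1.96, against -0.92 over all probe sets. Of these, 42 of 49 read lower on all 4 bound arrays, against 54.7% of all probe sets. The list was chosen with earlier results of these data known, so the count is not independent evidence either. Scaling changed the count and the share of all probe sets. There were 15 lower under quantile normalisation (20.8% of all), 10 under median centring (9.76% of all), 7 under cyclic loess (13.6% of all) and 0 under hybridisation control scaling (0% of all).

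The cone phosphodiesterase subunit Pde6c read 19.7 and 2.92 in the deiminated samples, 6.68 and 1.63 in the non-deiminated samples, and 416 in the input, a log2 difference of -5.37. Aipl1, a chaperone needed for phosphodiesterase assembly, had log2 differences of -4.94 (probe set 1427952_at) and -3.07 (probe set 1425590_s_at). Cabp4, a calcium-binding protein of the photoreceptor synapse, had -4.66 (probe set 1425878_at) and -2.99 (probe set 1456936_at). Cnga1, the rod channel subunit, had -4.57. The 1 probe set past the threshold with higher signal was that of Cdhr1, a photoreceptor cadherin that is also made by mitral and tufted cells of the olfactory bulb. It read 128 and 96.4 in the deiminated samples, 114 and 125 in the non-deiminated samples, and 9.95 in the input, a log2 difference of 3.08. Under hybridisation control scaling no probe set of these 5 genes was past the threshold. There the difference of Cdhr1 was larger, at 5.75. Those of Pde6c, Aipl1 1427952_at, Cabp4 1425878_at and Cnga1 shrank to between -0.54 and -0.11. Rgs9, which accelerates transducin turn-off in photoreceptors and has a splice form abundant in striatum, was bright on its probe set 1418691_at, with 267 and 324 in the deiminated samples, 263 and 424 in the non-deiminated samples, and 480 in the input. Its difference was -0.61, not past the threshold. Its dimmer probe sets differed from each other, with -2.23 for 1426033_at, which was past the threshold, and -0.54 for 1439635_at, which was not. Between deiminated and non-deiminated RNA 0 of the 49 were called by limma, as were 0% of all probe sets. At an unadjusted p under 0.05 there were 0 of the 49 and 923 of all 45037 probe sets. The differences of the 49 ran from -1.48 to 1.04.

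Lists of genes typical of other tissues gave values in the same range as the photoreceptor genes. The median bound-minus-input difference was -2.59 for 12 lens crystallin probe sets, -2.28 for 23 of testis germ cells, -1.81 for 15 of pancreas and -2.40 for 16 of retinal pigment epithelium. It was -1.25 for 10 of retinal bipolar cells and -3.03 for the 5 pineal ones. The share lower on all 4 bound arrays was 10 of 12, 17 of 23, 12 of 15, 12 of 16, 7 of 10 and 5 of 5 in the same order, against 11 of 14 for the photoreceptor members and 54.7% of all probe sets. In these lists the median probe set lay between percentiles 8.67 and 40.9 of the bound arrays, and between 24.4 and 59.8 of the input. Markers of brain cells had higher medians, of 1.40 for neurons, 1.35 for oligodendrocytes, 0.38 for astrocytes and -0.05 for microglia. Their single probe sets went both ways. Lower on all 4 bound arrays were 4 of 21, 2 of 18, 9 of 25 and 5 of 11 in the same order. Higher on all 4 were 15, 13, 12 and 4. No difference between lists was tested. The low bound signal relative to input was therefore not shown to be particular to photoreceptor genes.

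**Figure D4:**
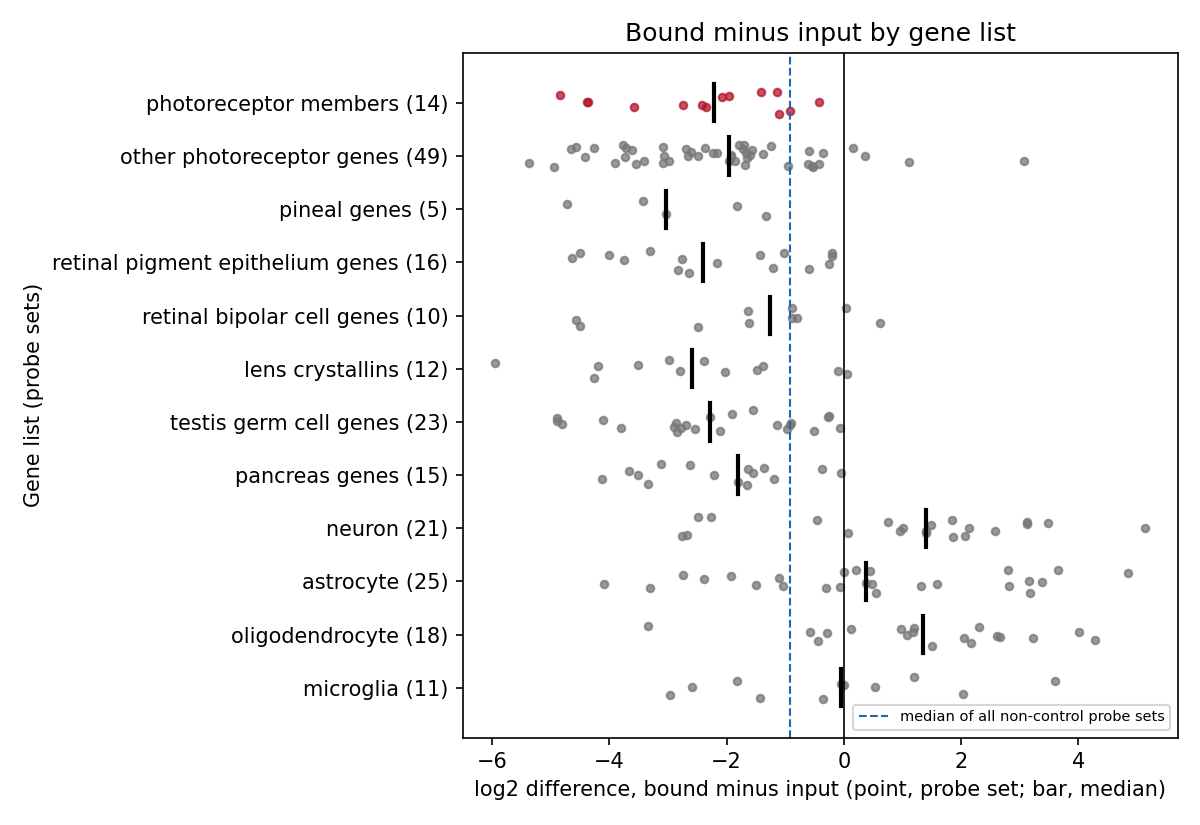
Log2 difference of bound minus input for each probe set (point) by gene list, with the list's median (black bar), the median of all non-control probe sets at -0.92 (dashed line) and the number of probe sets in brackets. The photoreceptor members, in red with a median of -2.21, lie in the range of the lens, testis and pancreas lists, while neuronal markers have a median of 1.40.

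The 5 probe sets of other genes whose signals lay closest to the members' mean profile over the 5 arrays belonged to Zg16, Oxgr1, Rab27a, Nell1 and Lama3. Their root mean square distances were 0.149, 0.177, 0.198, 0.213 and 0.217 log2. That profile was 3.75 and 4.03 log2 in the deiminated samples, 3.55 and 4.58 log2 in the non-deiminated samples, and 6.38 log2 in the input, with SDs between members of 1.01 to 1.73 (n = 14 probe sets). Likeness over 5 arrays is a description and says nothing of shared function.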

How the data were processed

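The deposited table holds MAS5 signal intensity per probe set, per the submitters' processing notes, with no version given in the sources used here. With 2% of probe sets trimmed from both ends the mean signal was 150 per array, so the authors had scaled the arrays to a common level. One factor per array multiplies dim and bright probe sets alike. Of 45037 non-control probe sets, 34945 had 1 gene symbol, 932 several and 9160 none listed, and 64 controls stayed out of the tests. The values were not normalised further. Before log2, a pseudocount of 4.18 was added, 10 times smaller than the median of 41.8 over all values. Differences were tested in limma 3.58.1 (R 4.3.3; lmFit, eBayes with a trend) on the means of the 3 groups, without a signal filter, with 2 residual and 10.24 prior degrees of freedom. A filter at the 40th percentile would have kept 5 of the 14 probe sets. Benjamini-Hochberg adjustment ran over all non-control probe sets. The model was also run on simulated data in which the input array varied like the bound arrays. That run could not check whether the real input array does so.

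Replicate numbers only name the samples. Members, lists and tests were chosen with earlier results of these data known. Named among the other photoreceptor genes were up to 4 per direction, by size, among those called with all bound arrays on one side of input. Rgs9 was named after its values were seen. Some genes that were to be named are not reported here. Alternatives covered the pseudocount, filter, scaling, variance model, array weights, a block for the protein name in the title, a fit without the input and fits that omit 1 bound array each.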

Additional observations from a re-analysis of the deposited data

How the results depend on the processing

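The count of probe sets called between deiminated and non-deiminated RNA was 0 under all 15 alternatives, for the members and for all probe sets. With any 1 bound array omitted, 11 to 12 members were lower than input on all 3 that remained (55.5% to 58.9% of all probe sets). The members lower on all 4 bound arrays numbered 11 (54.7% of all). They numbered 8 under median centring (30.5% of all probe sets), quantile normalisation and percentile ranks (39.7% for both) and cyclic loess (42.0%), 5 with the signal filter (of the 5 that passed it, which counts the input array; 45.6% of all tested) and 0 under hybridisation control scaling (0.713%). A 2-fold bound, added after the data were seen, gave 9 (37.1% of all). Other photoreceptor probe sets called lower numbered 29 (36.2% of all probe sets), and 4 of 6 tested with the filter (29.8% of all tested). Median centring gave 10 (9.76% of all), quantile normalisation 15 (20.8%), cyclic loess 7 (13.6%) and hybridisation control scaling 0 (0%). Called higher was 1 (15.6% of all). Here median centring gave 2 (28.4%), quantile normalisation 2 (22.3%), cyclic loess 3 (16.2%) and hybridisation control scaling 0 (0%). The causes were not tested.

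For deiminated minus non-deiminated, each member probe set had a value under each alternative that kept it. Of these values 12 turned sign and 189 did not. Crx 1418705_at had -0.020 with the larger pseudocount of 16.7, Crx 1449185_at 0.0014 after quantile normalisation and Arr3 1425232_x_at 0.0082 after cyclic loess. With any 1 bound array omitted, the range was -1.17 to 1.69 for Crx 1418705_at, -0.53 to 0.29 for Crx 1449185_at and -1.18 to 2.11 for Rp1 1424964_at. It was -0.31 to 0.12 for Arr3 1425232_x_at, -0.066 to 0.59 for Arr3 1450329_a_at, -0.53 to 0.032 for Pde6g 1425100_a_at and -2.31 to 0.30 for Gnat1. Pde6b kept its sign throughout, from 0.84 with the larger pseudocount to 2.38 with the smaller one of 1.05. The labels give the bound groups no shared replicate numbers. The titles pair them by protein name, and a fit with that name as a block, with 1 residual degree of freedom, called 0 members between deiminated and non-deiminated RNA. No probe set lists a member among several symbols, so that alternative gave no value. Leaving out an array leaves 1 in its group, assumed to vary like the others. Most member signals on the bound arrays lay below the arrays' medians, near the pseudocount, which limits what their log2 differences can show.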
